A study of Mus musculus with 24 samples.

Results

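The 10 genes described here encode the 3 TGF-beta ligands (Tgfb1, Tgfb2, Tgfb3), the activin subunits beta A and beta B (Inhba, Inhbb), the ligand BMP4 (Bmp4), and 4 secreted proteins of the follistatin and gremlin families (Fst, Fstl3, Fstl1, Grem1). They were picked by symbol out of the 15323 symbols listed across 6 deposited tables of mouse mammosphere RNA sequencing, and the choice was made with values of the same tables known. Their means and fold changes are therefore given as a description, with no test of the set. Fst, the activin antagonist follistatin, was lower with Myc-ER in unsorted and in PKH-negative spheres, in ErbB2 tumour spheres, in Trp53 knockout spheres and in PKH-high cells, and was higher with Nutlin-3. The same was true of Fstl1. Inhbb was lower in the same comparisons apart from PKH-high, where it was not called. Tgfb3 was the one gene of the 10 called higher in the knockout. Grem1 had a larger log2 fold change there, 0.77 against 0.61 for Tgfb3, but was not called.

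Mammospheres grow in suspension from single mammary cells, here in serum-free medium with EGF and a fibroblast growth factor. The tables compare 8 groups with 24 libraries, from mice of the FVB/Hsd strain. Wild-type spheres from normal glands of mice aged 7 weeks carried the empty lentiviral vector pWPI (3 libraries) or pWPI-MycER (3 libraries), a fusion of Myc with the ligand-binding domain of the oestrogen receptor; both were taken at passage 3, 72 h after plating. Tumour spheres came from MMTV-ErbB2 mice aged 12 to 15 weeks, in which a viral promoter active in mammary epithelium drives a mutated ErbB2. They were not infected, were taken at passages 6 to 7, and were left untreated (5 libraries) or given 2.5 µM Nutlin-3 for 72 h, a small molecule that keeps Mdm2 off p53 (3 libraries). Trp53 knockout spheres came from normal glands of mice aged 7 weeks (2 libraries, not infected, passages 6 to 7). Uninfected wild-type cells from mice aged 7 weeks, labelled with the membrane dye PKH, which each division dilutes, were sorted at passage 1 as PKH-high (2 libraries) or PKH-negative (3 libraries). PKH-negative cells were also infected with pWPI-MycER and taken at passage 3, 72 h after plating (3 libraries). The labels mention no ligand given to activate the fusion. Infection, passage and, for the tumours, age differ between the groups of several comparisons and cannot be told apart from genotype there.

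TGF-beta ligands and activins bind pairs of serine/threonine kinase receptors that phosphorylate Smad2 and Smad3, whereas BMPs act through Smad1, Smad5 and Smad9. TGF-beta is secreted in a latent complex and has to be released from it, for instance by integrins. Activins are dimers of the beta subunits; follistatin and Fstl3 bind them and keep them from their receptors, and gremlin 1 does the same for BMPs. In the mammary gland TGF-beta restrains growth of the ducts and of the epithelium, and stromal cells are a major source of matrix made under its control.

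All means, log2 fold changes and adjusted p-values of genes were taken from the authors' deposited table of the comparison in question. A mean is the authors' mean normalised count of a group, and no values per library were analysed, so the spread between the biological replicates of a group cannot be shown and overlap of libraries cannot be judged. The value after ± is the standard error implied by the authors' fold change and p. A gene is called higher or lower where the authors' DESeq2 adjusted p was below 0.05. The Myc-ER, ErbB2 and knockout comparisons share the empty-vector libraries, the ErbB2 and Nutlin-3 comparisons share tumour libraries, and both sorted comparisons share the PKH-negative libraries. All 10 genes had an entry in at least 4 tables: Grem1 had none in the Myc-ER table and Bmp4 none in the ErbB2 and Nutlin-3 tables. The tables list only genes with a mean above 10, yet Grem1 had 7793 normalised counts with the empty vector in the knockout table. It was one of 146 genes, of 6946 with a mean above 1000 in that group, that had no entry in the Myc-ER table.

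The summed means lay between 36651122 and 48054435 normalised counts per group. Of the genes the labels say were altered, Myc had 16782 normalised counts with Myc-ER against 2975, and 28517 against 5996 in PKH-negative cells. Trp53 had 2998 in the spheres labelled as knockout against 4207, lower (-0.49 ± 0.12) but well above 0; the deleted part is not given in the labels, so reads outside it may remain. Erbb2 was lower in the spheres labelled as ErbB2 tumour, at 736 against 1498 (-1.003 ± 0.37), which goes against overexpression of the gene as counted; whether transgene reads fall under this symbol cannot be told. Both groups are called tumour and knockout spheres here after their labels. The cultures had strong fibroblast expression: the 10 fibroblast markers summed to between 207557 and 570595 normalised counts, with Pdgfra between 17474 and 46586. Epithelial markers were low in most groups. The keratin genes Krt8, Krt19, Krt5 and Krt14 and the adhesion genes Epcam and Cdh1 had no entry in either tumour table, and Epcam was at 7.88 normalised counts in the knockout, 72.2 in PKH-negative cells and 4946 in PKH-high cells. In every group the fibroblast markers summed to more than the luminal or the basal ones. In such bulk samples, fewer cells of a type and less RNA per cell cannot be told apart.

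**Figure D1:**
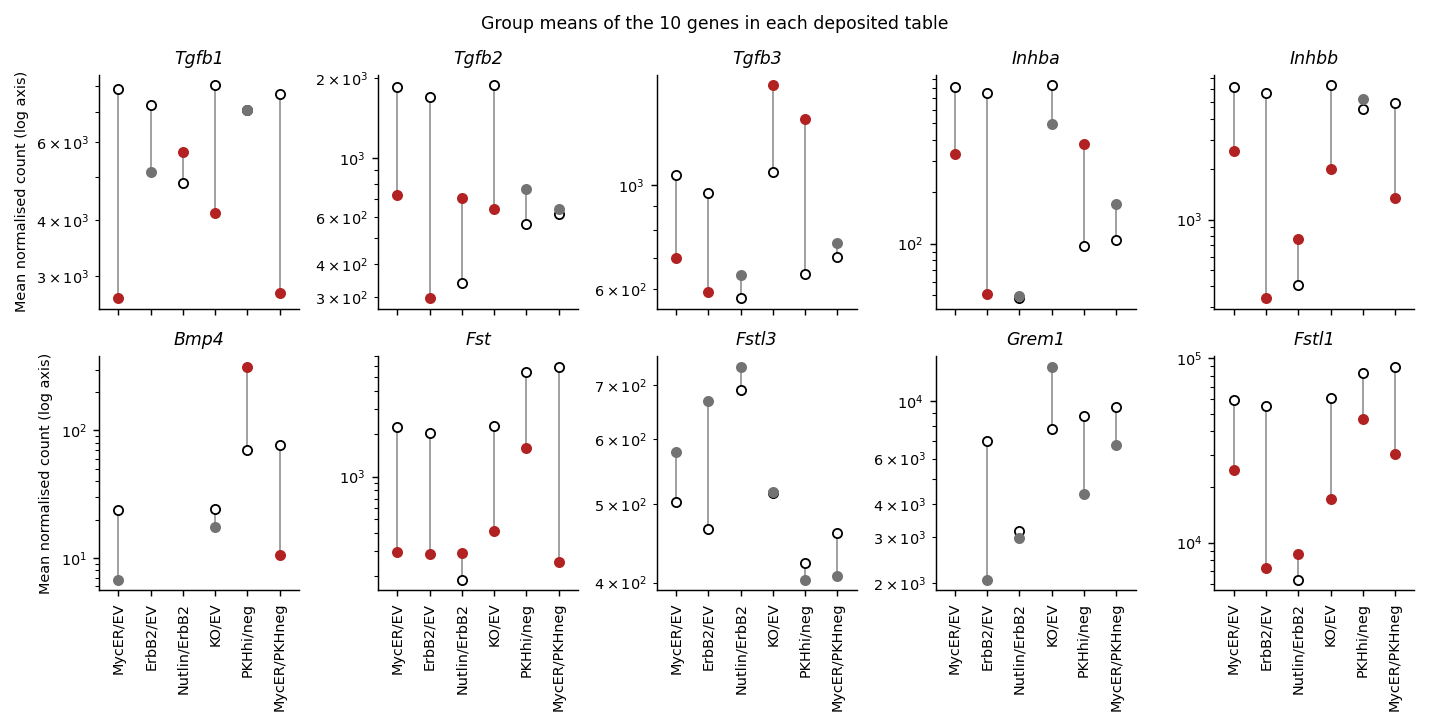
Mean normalised count (log axis) of each of the 10 genes in the 6 deposited tables. In each pair the open circle is the control group and the filled circle the other group, red where the authors' adjusted p was below 0.05 and grey where it was not. Fst falls from 2220.4 to 298 with Myc-ER and from 5937 to 252 with Myc-ER in PKH-negative cells, while the Fstl3 pairs are all grey.

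Of the TGF-beta ligands, Tgfb1 had the highest level per kilobase of exon in each group. Tgfb1 (mm10 chromosome 7, 25687002 to 25705077, plus strand) encodes the isoform best known for growth arrest and matrix induction. It had 2675 normalised counts with Myc-ER against 7877 with the empty vector, a log2 fold change of -1.51 ± 0.28, and 2754 against 7712 with Myc-ER in PKH-negative cells (-1.34 ± 0.40). It was also lower in the knockout, with 4160 normalised counts against 8052 (-0.94 ± 0.27). The tumour mean of 5129 against 7269 did not pass (-0.49 ± 0.35), and within tumours Nutlin-3 gave 5709 against 4843, a paired log2 fold change of 0.23. PKH-high and PKH-negative cells had 7083 and 7090 normalised counts.

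Tgfb2 (chromosome 1, 186622792 to 186705989, minus strand) encodes an isoform prominent in development of the heart and skeleton. It was lower in tumour spheres, with 297 normalised counts against 1701 (-2.39 ± 0.57). Myc-ER gave 727 against 1862 (-1.28 ± 0.37) and the knockout 645 against 1885 (-1.49 ± 0.49). Nutlin-3 raised it from 339 to 708, a ratio of 2.09 and a paired log2 fold change of 0.94. It thus changed in each comparison of unsorted spheres. In the sorted cells it did not pass: PKH-high cells had 762 normalised counts against 566 (0.42 ± 0.33), and Myc-ER in PKH-negative cells 645 against 616 (0.07 ± 0.21).

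Tgfb3 (chromosome 12, 86056745 to 86079041, minus strand) is known for its role in palate closure and in mammary involution. It changed opposite to Tgfb1 and Tgfb2 in the knockout, and alone of the 3 was called in PKH-high cells. It was higher in the knockout, with 1628 normalised counts against 1067 (0.61 ± 0.20), and in PKH-high cells, with 1380 against 646 (1.08 ± 0.23). It was lower with Myc-ER at 697 against 1048 (-0.58 ± 0.18) and in tumours at 591 against 963 (-0.70 ± 0.26). It did not pass with Nutlin-3 (645 against 574) or with Myc-ER in PKH-negative cells (752 against 703, 0.10 ± 0.21). Tgfb3 overlaps Ttll5 on the opposite strand, and whether counting used strand is not stated in the labels or headers, so reads of both genes cannot be told apart. Opposite-strand genes also overlap Tgfb2 (Gm26169 and Gm29491), Inhba (B230303A05Rik and Gm48444) and Fst (Gm47040), with the same limit.

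Per kilobase, the makeup of TGF-beta mRNA moved with these genes. Tgfb1 was 58.2% to 83.0% of the summed level of the 3 isoforms over the groups. Tgfb3 made up 34.0% in the knockout against 14.1% with the empty vector, and 23.9% with Myc-ER. Tgfb2 made up 4.12% in tumour spheres against 14.5% with the empty vector of the same table, and 8.46% after Nutlin-3 against 4.92% in the 3 untreated tumours paired with it. In PKH-negative cells the shares were 83.0% for Tgfb1, 5.77% for Tgfb2 and 11.3% for Tgfb3, and with Myc-ER they were 62.1%, 12.7% and 25.3%. These shares come from group means and carry no spread.

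The activin subunit genes were most reduced in the tumour spheres. Inhbb (chromosome 1, 119415465 to 119422248, minus strand), which encodes the subunit of activin B and inhibin B, had 339 normalised counts in tumours against 5725 with the empty vector, 16.9-fold lower (-3.93 ± 0.48). It was lower with Myc-ER at 2552 against 6203 (-1.24 ± 0.26), in the knockout at 2007 against 6341 (-1.63 ± 0.33), and with Myc-ER in PKH-negative cells at 1337 against 4945 (-1.81 ± 0.25). Nutlin-3 raised it from 407 to 769.6, a ratio of 1.89. It did not pass in PKH-high cells, with 5215 against 4546 (0.20 ± 0.21).

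Inhba (chromosome 13, 16011851 to 16031621, plus strand), which encodes the subunit of activin A and inhibin A, was the less abundant of the pair. In tumours it had 51.2 normalised counts against 751, 14.7-fold lower (-3.71 ± 0.52), and with Myc-ER 330.01 against 810.2 (-1.19 ± 0.43). It was higher in PKH-high cells, at 379 against 96.3 (1.85 ± 0.55). Unlike Inhbb it did not pass in the knockout (494 against 831, -0.71 ± 0.59), with Nutlin-3 (49.4 against 48.2) or with Myc-ER in PKH-negative cells (170.2 against 104.7, 0.60 ± 0.48). No test compared the changes of the 2 genes. Per kilobase, Inhbb made up between 85.9% of the summed activin subunit level in the knockout and 98.6% in PKH-negative cells.

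Bmp4 (chromosome 14, 46383520 to 46390669, minus strand), which encodes a BMP active in many epithelia, was the least abundant of the listed genes per kilobase in the unsorted groups with an entry. It was higher in PKH-high cells, with 317 normalised counts against 70.4 (2.07 ± 0.46), and lower with Myc-ER in PKH-negative cells, with 10.6 against 76.5 (-2.39 ± 0.52). In unsorted spheres the means were close to the listing limit: 6.76 with Myc-ER against 23.8 (-1.37 ± 0.66) and 17.6 in the knockout against 24.4 (-0.41 ± 0.88), and neither passed. Bmp4 overlaps Gm15217 on the opposite strand.

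The promoters of Tgfb2, Bmp4, Inhbb and Inhba are shown because Tgfb2 and Bmp4 hold the E-box CACGTG, the DNA element that Myc binds with Max, while the 2 activin subunit genes do not. Each is the RefSeq sequence (GRCm38.p6) from 250 bases before to 50 after the gene's start, 5′ to 3′ on the gene's strand, with the E-box, the TATA sequence TATAAA and the GC box GGGCGG in capitals, searched on both strands.
Tgfb2: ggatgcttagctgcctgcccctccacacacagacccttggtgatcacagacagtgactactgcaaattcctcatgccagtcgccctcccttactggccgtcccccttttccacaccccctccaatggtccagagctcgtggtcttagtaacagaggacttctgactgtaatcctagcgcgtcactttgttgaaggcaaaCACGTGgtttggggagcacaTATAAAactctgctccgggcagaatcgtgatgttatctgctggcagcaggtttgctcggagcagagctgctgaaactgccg
Bmp4: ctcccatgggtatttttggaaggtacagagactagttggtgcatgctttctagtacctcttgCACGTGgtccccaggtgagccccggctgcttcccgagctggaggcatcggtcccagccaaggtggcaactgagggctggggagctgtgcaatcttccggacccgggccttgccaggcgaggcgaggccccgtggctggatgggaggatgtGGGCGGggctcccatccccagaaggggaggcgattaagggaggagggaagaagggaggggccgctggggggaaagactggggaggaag
Inhbb: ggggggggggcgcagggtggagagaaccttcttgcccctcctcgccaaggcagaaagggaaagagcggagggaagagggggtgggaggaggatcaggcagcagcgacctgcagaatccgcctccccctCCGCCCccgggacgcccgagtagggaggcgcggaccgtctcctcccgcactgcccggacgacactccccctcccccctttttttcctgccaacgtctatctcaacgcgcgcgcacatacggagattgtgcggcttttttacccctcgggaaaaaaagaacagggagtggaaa
Inhba: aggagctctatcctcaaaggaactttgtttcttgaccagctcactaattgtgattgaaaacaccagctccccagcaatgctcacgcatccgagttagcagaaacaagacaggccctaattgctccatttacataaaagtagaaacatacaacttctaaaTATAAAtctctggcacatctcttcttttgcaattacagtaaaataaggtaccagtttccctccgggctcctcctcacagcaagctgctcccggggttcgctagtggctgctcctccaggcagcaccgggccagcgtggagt
They lie at chr1:186705940-186706239 (minus strand), chr14:46390620-46390919 (minus), chr1:119422199-119422498 (minus) and chr13:16011601-16011900 (plus). The E-box starts 51 bases upstream of the Tgfb2 start and 188 bases upstream of the Bmp4 start. The sequence TATAAA starts 31 bases upstream in Tgfb2 and 91 in Inhba, and the GC box (GGGCGG or its complement) 122 upstream in Inhbb and 38 in Bmp4. Promoter sequences matched 8 of the 10 genes, and 2 of the 8 hold the E-box. The TATA sequence was found in 3 of the 8, Tgfb2, Fstl3 and Inhba. The GC box was found in 6 of the 8, Inhbb, Grem1, Tgfb1, Fstl3, Bmp4 and Fstl1. The Smad-binding core CAGAC, not shown in capitals, was found in 3 of the 8, Tgfb2, Grem1 and Fstl3. Among the 32851 promoters of the same length, 7.15% hold CACGTG, 13.6% the TATA sequence, 35.7% the GC box and 49.6% the Smad-binding core on either strand; matches may overlap one another. A match is a description of the letters, not a bound site.

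Fst (chromosome 13, 114452290 to 114458951, minus strand) encodes follistatin, which binds activins almost irreversibly. Its drop was steepest with Myc-ER in PKH-negative cells, from 5937 to 252 normalised counts, 23.5-fold lower, where its log2 fold change of -4.19 ± 0.36 was the 9th lowest of 14382 genes. In unsorted spheres Myc-ER gave 298 against 2220.4 (-2.85 ± 0.19), the 19th lowest of 13873. Tumours had 285 normalised counts against 2039 (-2.59 ± 0.75), and the knockout 415 against 2258 (-2.30 ± 0.61). Fst was thus below its control in each of these 4 groups. PKH-high cells had 1585 against 5459 (-1.75 ± 0.29), and Nutlin-3 raised the tumour mean from 189 to 291, a paired log2 fold change of 0.70 with the authors' DESeq2 adjusted p of 0.0381. The difference between the 2 falls with Myc-ER was not tested, and their controls were unlike. The PKH-negative control was uninfected and at passage 1, while the empty-vector control was infected and at passage 3. The 2 comparisons were also normalised separately.

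Fstl3 (chromosome 10, 79777272 to 79782630, plus strand) encodes a second follistatin-type antagonist of activin and myostatin, and it passed in none of the 6 tables. Its deposited log2 fold change ran from -0.15 ± 0.39 with Myc-ER in PKH-negative cells to 0.51 ± 0.35 in tumours, where it had 669 normalised counts against 465. The knockout and its control had 517 and 515. It overlaps Prss57 on the opposite strand. In tumours Fstl3 was the more abundant of the 2 follistatin genes per kilobase, at 273 normalised counts per kilobase against 62.0 for Fst, and with the empty vector of the same table it was the less abundant, at 190.2 against 444.

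Grem1 (chromosome 2, 113746164 to 113758646, minus strand) encodes gremlin 1, a BMP antagonist made mainly by stromal cells. It was abundant and passed in none of the 5 tables that list it. The knockout had 13548 normalised counts against 7793 (0.77 ± 0.45) and tumours 2058 against 7036 (-1.35 ± 1.12). Nutlin-3 gave 2976 against 3175, with a paired log2 fold change of -0.46 that did not pass. PKH-high cells had 4376 against 8719 (-0.96 ± 0.40, the authors' DESeq2 adjusted p 0.0518), and Myc-ER in PKH-negative cells 6776 against 9486 (-0.45 ± 0.34). The tumour value had the widest standard error of the 9 listed genes in that table, so the 3.42-fold gap in its means did not pass.

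Fstl1 (chromosome 16, 37776873 to 37836514, plus strand) encodes a follistatin-like glycoprotein of mesenchymal cells that, unlike follistatin, is not known chiefly as an activin antagonist. It had the highest level per kilobase of the listed genes in every group and table, though Grem1 had no entry for unsorted Myc-ER spheres. In tumours it had 7276 normalised counts against 54875 (-2.88 ± 0.27), and in the knockout 17274 against 60786 (-1.79 ± 0.31). Myc-ER gave 24843 against 59480 (-1.24 ± 0.19), and in PKH-negative cells 30260 against 89895 (-1.53 ± 0.20). PKH-high cells had 46734 against 82656 (-0.81 ± 0.22), and Nutlin-3 raised it from 6304 to 8661 (0.46). Fstl1 is thus called in all 6 tables, as is Fst, and in the same direction in each.

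**Figure D2:**
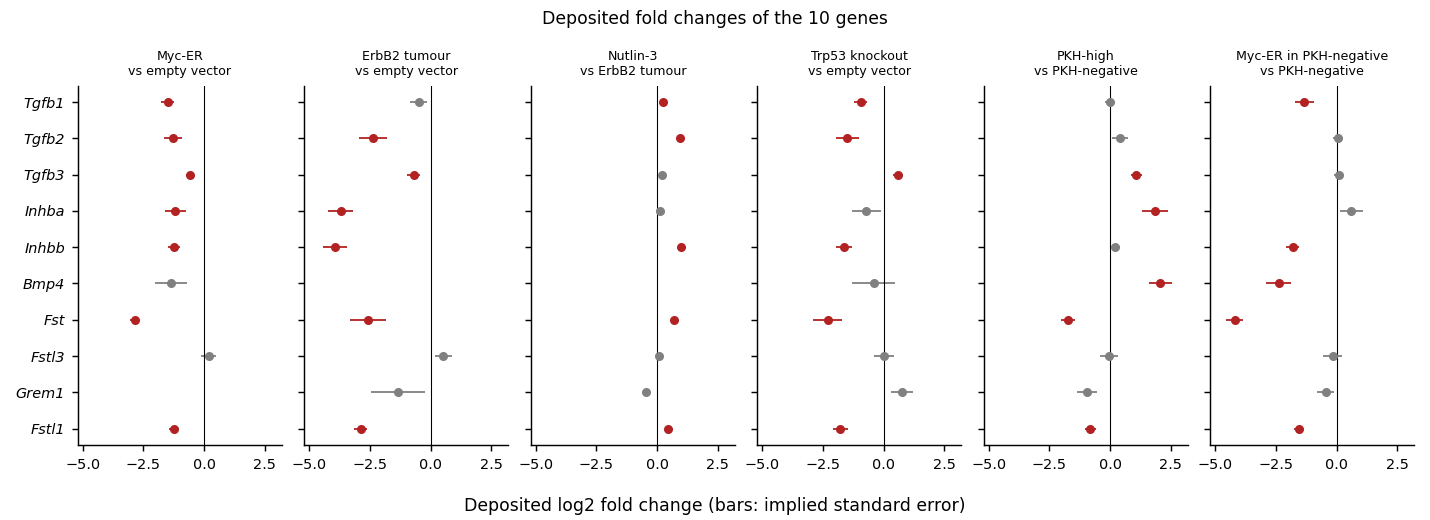
Deposited log2 fold change of the 10 genes in each comparison, with the implied standard error as a bar (none for Nutlin-3, where the deposited value is a paired mean); red points passed the authors' adjusted p of 0.05 and grey points did not. Fst and Fstl1 lie left of 0 in 5 panels and right of it with Nutlin-3. Tgfb3 lies right of 0 in red in the knockout and PKH-high panels, and in grey with Nutlin-3 and with Myc-ER in PKH-negative cells.

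The ratio of Fst to the summed activin subunit genes, per kilobase of exon, describes follistatin mRNA beside that of its ligands. It was 0.305 with the empty vector and 0.0996 with Myc-ER, and 0.165 in the knockout against 0.304. In tumours, where Inhbb was reduced more than Fst, it was 0.707 in the 5 libraries and 0.399 in the 3 of the Nutlin-3 table, against 0.304 with the empty vector. Which tumours enter thus moved the tumour value by over 1.5 times, and Nutlin-3 gave 0.336 against the 0.399. It was 1.098 in PKH-negative cells, against 0.269 in PKH-high cells and 0.161 with Myc-ER in PKH-negative cells. With Fstl3 added to Fst, the other gene for an activin antagonist, the order was different. The summed ratio was 0.463 with Myc-ER against 0.435 with the empty vector, and 0.5497 in the knockout against 0.434. It was 3.825 in tumours of the 5 libraries and 3.13 in the 3 of the Nutlin-3 table, where Nutlin-3 gave 1.94. It was 1.26 in PKH-negative cells, 0.397 in PKH-high cells and 0.650 with Myc-ER in PKH-negative cells. The lower ratio with Myc-ER in unsorted spheres and in the knockout thus holds for Fst alone and not for both genes summed. These are mRNA ratios of group means with no spread, and no test was made on them.

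**Figure D3:**
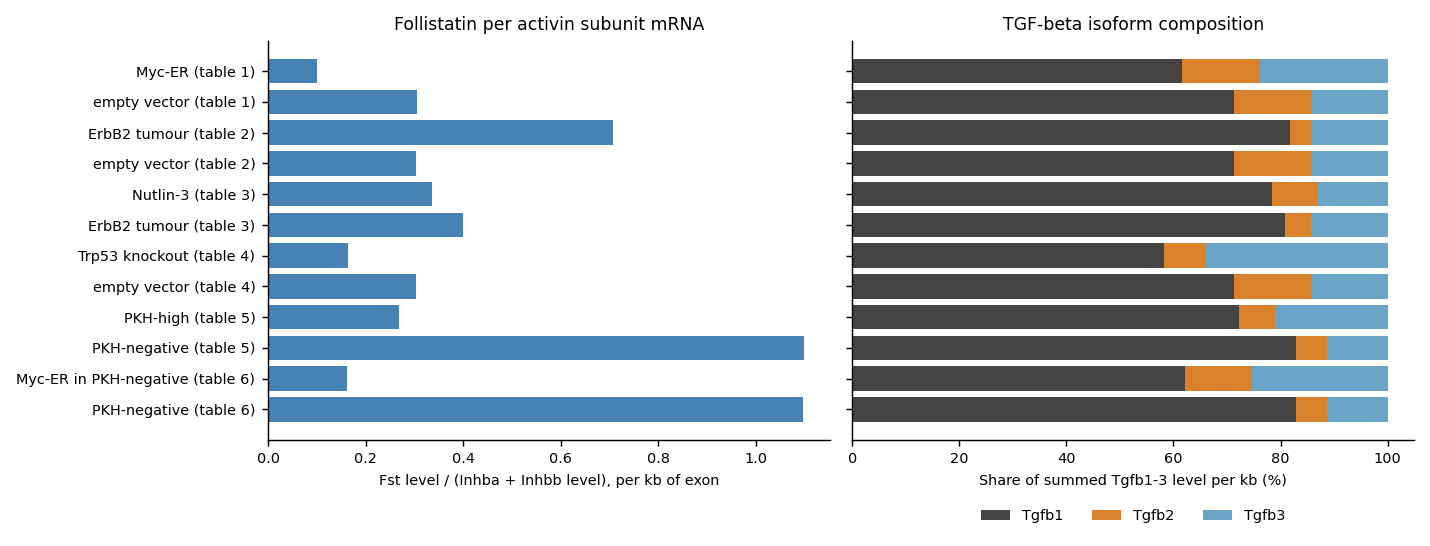
Left, Fst level divided by the summed Inhba and Inhbb level, each per kilobase of exon, by group and table. Right, shares of Tgfb1, Tgfb2 and Tgfb3 in their summed level per kilobase (%). PKH-negative cells stand at 1.098 on the left, and the knockout has the largest Tgfb3 share on the right, 34.0%.

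By comparison, Myc-ER in unsorted spheres addressed the effect of the fusion on wild-type cells. Of the 9 listed genes 7 were lower, 0 higher and 2 not called. Of all 13873 genes 50.8% were called, 24.1% lower and 26.7% higher. At an unadjusted p below 0.05 in the authors' DESeq2 test, 8 were lower and 0 higher. The median log2 fold change of the 9 was -1.24, against -0.02 over all genes. Macrophage markers summed to 1458 normalised counts against 3839 with 9 of 10 lower, endothelial ones to 2828 against 6344 with 4 of 8 lower, and fibroblast ones to 251262 against 545458 with 6 of 9 lower. Luminal markers summed to 2800.4 against 5350 with 1 of 8 lower, and basal ones to 600.4 against 1495 with 1 of 6 lower. Their part in these results was not tested.

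Among other pathway genes, TGF-beta target genes were lower with Myc-ER in 8 of 13 cases and higher in 0, also at an unadjusted p below 0.05, with the matrix genes Postn (-2.05 ± 0.10), Col1a1 (-1.66 ± 0.45) and Fn1 (-1.45 ± 0.13) first. Col1a1, Col1a2 and Col3a1 of this list are also fibroblast markers, and Acta2 a basal one. Receptors were lower in 5 of 12, among them both TGF-beta receptors, Tgfbr2 (-1.26 ± 0.14) and Tgfbr1 (-1.04 ± 0.08). Genes of latency were lower in 7 of 14, with Lrrc32, which tethers latent TGF-beta to the cell surface, at -2.36 ± 0.15. Other secreted antagonists were lower in 6 of 11, among them the BMP antagonist gene Nbl1 (-1.52 ± 0.27). Of 10 inhibitors 4 were lower, led by Pmepa1 (-1.77 ± 0.45), and the corepressor gene Tgif2 was higher (1.34 ± 0.22). Smad3, the transducer of TGF-beta and activin, was lower (-1.05 ± 0.24) and Smad5 higher (0.41 ± 0.17). Across the 8 lists 36 of 87 genes were lower and 6 higher, beside 24.1% and 26.7% of all genes. In either direction 48.3% were called, no more than the 50.8% of all genes. The called share was 41.7% for receptors and 50% each for latency genes and inhibitors.

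In ErbB2 tumour spheres 6 of the 9 listed genes were lower, 0 higher and 3 not called. Of all 13288 genes 27.1% were called, 13.6% lower and 13.5% higher. At an unadjusted p below 0.05 the authors' DESeq2 test gave the same counts, 6 and 0. The median log2 fold change was -2.39 against 0.02 over all genes. Macrophage markers summed to 777 normalised counts against 3412 with 5 of 7 lower and Tyrobp and C1qa below 1. Endothelial markers summed to 345 against 1377 with 4 of 4 lower, and luminal ones to 271 against 2878 with 3 of 4 lower. Basal markers, Acta2 among them, summed to 37.05 against 527 with 1 of 2 lower. Their part in these results was not tested. Fibroblast markers summed to 382834 against 515060, with 3 of 10 lower and 1 higher.

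Of the TGF-beta target genes 7 of 13 were lower in tumours and 1 higher, led by Postn (-4.68 ± 0.60) and the contractile genes Acta2 (-3.88 ± 0.58) and Tagln (-3.72 ± 0.34). Lrrc32 was at -4.46 ± 0.35, one of 5 of 12 latency genes that were lower. Pmepa1 (-4.29 ± 0.75), Skil (-1.85 ± 0.43) and Smad7 (-1.22 ± 0.33), inhibitors that TGF-beta itself induces, were among the 5 of 10 inhibitors that were lower. Tgfbr1 (-1.91 ± 0.31) and the endothelial receptor gene Acvrl1 (-2.37 ± 0.41) were lower, with 3 of 11 receptors in all. None of the 6 Smad transducers passed the authors' DESeq2 test, also 0 at an unadjusted p below 0.05. Of the other ligands Bmp7 was listed at 0 normalised counts in tumours against 80.2 and was called lower. Across the lists 28 of 83 genes were lower and 5 higher, beside 13.6% and 13.5% of all genes. In either direction 39.8% were called, and 27.3% of the receptors, beside 27.1% of all genes.

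Nutlin-3 asked what release of p53 from Mdm2 does in tumour spheres. Of the 9 listed genes 5 were higher (Tgfb1, Tgfb2, Inhbb, Fst and Fstl1), 0 lower and 4 not called. Of all 13038 genes 14.7% were called, 7.71% higher and 7.03% lower. At an unadjusted p below 0.05, 5 were higher and 0 lower. The median log2 fold change was 0.23 against 0.03. The authors' DESeq2 adjusted p was 6.36e-07 for Tgfb2, 2.46e-09 for Inhbb and 4.06e-07 for Fstl1, and 0.0361 for Tgfb1. At 0.01, 3 of the 5 pass. Macrophage markers summed to 1925 normalised counts against 1020.4, with 1 of 8 higher. Their median log2 fold change was 1.40, and C1qa, C1qb and C1qc were below 1 in the untreated tumours. Fibroblast markers summed to 273242 against 293655, with 1 of 9 higher and 1 lower. Endothelial markers summed to 396 against 326, luminal ones to 317 against 346 and basal ones to 44.4 against 46.9, with 0 called. The part of these markers was not tested.

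Receptors were higher with Nutlin-3 in 3 of 11 cases: Acvrl1 (0.90), Tgfbr2 (0.36) and Tgfbr1 (0.35). So were 4 of 13 latency genes, with Lrrc32 at 1.02 and the protease gene Bmp1 at 0.60, while the latent TGF-beta binding protein gene Ltbp1 was lower (-0.70). Smad3 (0.62) was the one transducer of 6 that passed. TGF-beta target genes were split, with 2 of 13 higher, including the CDK inhibitor gene Cdkn2b (0.87), and 2 lower, including Ccn2 (-0.64). Across the lists 14 of 78 genes were higher and 4 lower, beside 7.71% and 7.03% of all genes.

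In the Trp53 knockout 5 of the 10 genes were lower, 1 higher (Tgfb3) and 4 not called. Of all 14699 genes 45.9% were called, 23.6% lower and 22.3% higher. The median log2 fold change was -0.83 against 0.01. Macrophage markers summed to 132 normalised counts against 3926 with 10 of 10 lower, and Ptprc, Adgre1, Tyrobp, C1qa, C1qb and C1qc were below 1. Endothelial markers summed to 440 against 6506 with 7 of 8 lower, luminal ones to 2423 against 5490 with 6 of 8 lower, and basal ones to 92.3 against 1520 with 4 of 5 lower. Their part in these results was not tested, and fibroblast markers summed to 515225 against 570595 with 1 of 10 lower.

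The rest of the pathway was mixed in the knockout, with 33 of 87 genes lower and 18 higher, beside 23.6% and 22.3% of all genes. Of the latency genes 7 of 14 were lower and 5 higher, with the integrin genes Itgb6 (1.46 normalised counts against 24.0; -3.15 ± 1.04) and Itgb8 (3.12 ± 0.71), whose products activate latent TGF-beta, on opposite sides. Of 13 TGF-beta target genes 3 were lower, among them Tagln (-3.73 ± 0.47) and Acta2 (-3.21 ± 0.59), and 1 was higher. Acta2 is also a basal marker. This list was called in 30.8% of cases in either direction, less often than all genes (45.9%). Among BMP target genes Atoh8 (4.29 ± 0.35) was higher and Msx1 (-3.34 ± 0.56) and Id2 (-2.38 ± 0.18) lower, with 3 of 6 in each direction. Acvrl1 fell by 4.40 on the log2 scale beside the endothelial markers. Smad9 (1.27 ± 0.31) was higher and Smad3 (-0.86 ± 0.30) lower.

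PKH-high against PKH-negative cells compared cells that had divided little with cells that had divided more. Of the 10 genes 3 were higher (Tgfb3, Inhba and Bmp4), 2 lower (Fst and Fstl1) and 5 not called. Of all 13959 genes 30.7% were called, 15.6% higher and 15.1% lower. The median log2 fold change was 0.10 against 0.01. The 2 groups differed widely in cell type markers. Macrophage markers summed to 47580 normalised counts against 995 with 10 of 10 higher, endothelial to 42674 against 1829 with 7 of 8 higher, luminal to 37326 against 1170 with 8 of 8 higher, and basal to 14653 against 391 with 6 of 7 higher. Fibroblast markers summed to 207557 against 388427 with 5 of 10 lower and 1 higher. Their part in these results was not tested.

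BMP target genes were higher in PKH-high cells in 4 of 6 cases, with Atoh8 (2.43 ± 0.76), Id4 (2.39 ± 0.45) and Id2 (0.80 ± 0.30), and 0 were lower, also at an unadjusted p below 0.05. The latency gene Nrros, whose product holds latent TGF-beta on macrophages, was at 4.65 ± 0.37, beside the macrophage markers. Tagln (4.27 ± 0.84) and Acta2 (3.95 ± 0.88) were higher and Fn1 lower (-1.67 ± 0.23), within 4 higher and 3 lower of 13 TGF-beta targets. Acta2 is also one of the basal markers, and Col1a1, Col1a2 and Col3a1 of these targets are fibroblast markers. Pmepa1 (2.49 ± 0.35) and Skil (1.29 ± 0.18) were higher, and the BMP antagonist gene Chrd (-0.999 ± 0.18) was lower. Across the lists 21 of 87 genes were higher and 21 lower, beside 15.6% and 15.1% of all genes.

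With Myc-ER in PKH-negative cells 5 of the 10 genes were lower (Tgfb1, Inhbb, Bmp4, Fst and Fstl1), 0 higher and 5 not called. Of all 14382 genes 37.5% were called, 18.5% lower and 18.9% higher. The authors' DESeq2 test gave 5 lower and 0 higher at an unadjusted p below 0.05 too. The median log2 fold change was -0.89 against 0.03. Macrophage markers summed to 1051 normalised counts against 1050.3, with 1 of 5 higher and 1 lower. Endothelial markers summed to 1183 against 1979 with 5 of 7 lower and 1 higher, and fibroblast ones to 260113 against 422433 with 3 of 10 lower. Luminal markers summed to 1345 against 1265, and basal ones to 162 against 420.4 with 1 of 5 lower. Their part in these results was not tested. The control cells here were uninfected and at passage 1, so infection and passage cannot be told apart from the fusion.

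TGF-beta target genes were lower in 7 of 13 cases and higher in 0 (1 at an unadjusted p below 0.05), among them Postn (-2.15 ± 0.44) and Acta2 (-2.001 ± 0.30). Col1a1, Col1a2 and Col3a1 of this list are also fibroblast markers, and Acta2 a basal one. Receptors were lower in 6 of 12, with Acvrl1 (-1.93 ± 0.46), Tgfbr2 (-1.68 ± 0.27) and the activin receptor gene Acvr1b (-1.21 ± 0.22). The secreted antagonist gene Chrd (-3.04 ± 0.17) was lower and Cer1 higher (1.903 ± 0.64). Tgif2 was higher again (1.16 ± 0.19) and Id2 lower (-1.86 ± 0.25). None of the 6 Smad transducers passed the authors' DESeq2 test, and 1 was higher at an unadjusted p below 0.05. Across the lists 33 of 88 genes were lower and 8 higher, beside 18.5% and 18.9% of all genes.

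**Figure D4:**
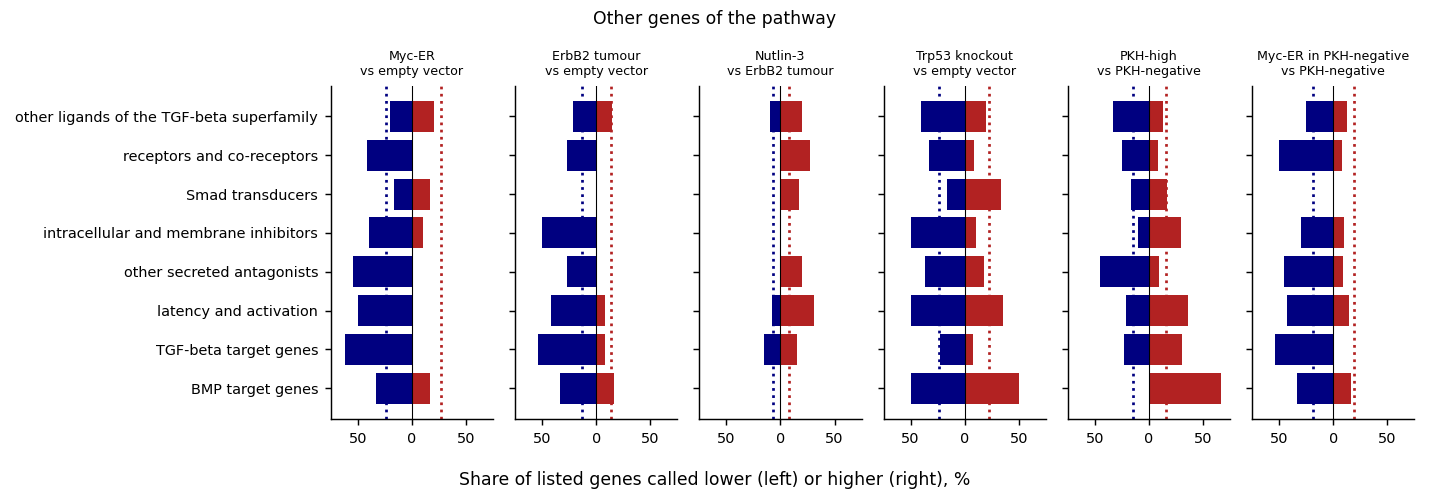
Share (%) of listed genes called lower (left, blue) or higher (right, red) in each of 8 pathway lists and each comparison; dotted lines mark the shares of all genes of that table in each direction. TGF-beta target genes extend left in both Myc-ER panels (8 and 7 of 13) with none to the right, and BMP target genes extend right with none to the left in PKH-high cells (4 of 6). The TGF-beta target list shares Col1a1, Col1a2 and Col3a1 with the fibroblast markers and Acta2 with the basal ones.

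For the 8 genes listed in all 6 tables, which leaves out Bmp4 and Grem1, the genes with the nearest fold changes were found among 10405 candidates listed in all 6 tables (10406 for Inhba) with a mean of at least 100 in each, by the root-mean-square difference of the log2 fold change. Comparisons that share controls enter this measure together, and it carries no p. It is not scaled to the size of the changes, so genes with large fold changes tend to have looser neighbours than genes near 0. Nearest to Tgfb1 were App (0.157) and H2-D1 (0.157), to Tgfb2 the coagulation factor gene F3 (0.254), and to Tgfb3 the homeobox gene Hoxb2 (0.233). Fstl1 lay nearest to the matrix metalloproteinase gene Mmp3 (0.326), and Fstl3 to Nr2c1 (0.1004). Inhbb and Inhba had looser neighbours, Unc5a (0.452) and Tubb2b (0.588). Fst had the loosest of the 8: its nearest, the lipase gene Liph, differed by 0.853, followed by Prss23 (0.947) and Islr2 (0.953).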

How the data were processed

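Polyadenylated RNA was sequenced from 24 mammosphere libraries in 8 groups. The submitters' processing notes name HTSeq 0.5.3p9, TopHat2 2.0.8 with Bowtie2 2.1.0, CASAVA 1.9, DESeq2 1.10.1 and SAMtools 0.1.18, and build mm10. The 6 deposited tables give a signal, the authors' mean normalised read count per group, and list genes with a mean above 10, per the file headers. The log2 fold changes of the authors are DESeq2 contrasts, except for Nutlin-3, where they are means over 3 treated and untreated pairs from the same tumour, per the file headers. The authors' deposited p-values were used as they stand, and the adjusted p-values matched a recomputed Benjamini-Hochberg adjustment to within 9.2e-07. Library totals and values per library were not analysed here, so the depth per library is unknown, no edgeR test was run, and a spread between replicates could not be given.

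A gene was called at the authors' adjusted p below 0.05. The implied standard error is the size of the deposited fold change over the normal deviate of its two-sided p. The wild-type tables were matched to the empty-vector group, the one unsorted wild-type group in the labels. Entries of the knockout table that name no gene (3, with 28.2% and 29.7% of the summed means) were left out. Levels per kilobase used GENCODE M21 exon lengths on mm10. Tables were normalised separately, so levels were compared within a table, and a range over groups or tables is set across separate normalisations. The members and the 8 lists of 104 pathway genes, of which 89 were listed somewhere, and the marker lists were chosen with earlier results of these data known. Named are the 10 genes, up to 3 called genes of largest change per list and comparison, and the nearest genes; some genes that this allows are not reported here. Computations were tested on simulated data and run in Python 3.11.15 with pandas 2.3.3, NumPy 2.4.6 and SciPy 1.17.1. Alternatives were a threshold of 0.01, a mean of at least 100, ratios of means with a pseudocount of 1 or 10, and centring on the median gene.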

Additional observations from a re-analysis of the deposited data

How the results depend on the processing

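At an adjusted p below 0.01, the count of the 10 genes called higher with Nutlin-3 was 3 in place of 5, and of pathway genes called higher 3 in place of 6 with Myc-ER and 3 in place of 8 with Myc-ER in PKH-negative cells. With a mean of at least 100, the last count was 5; fewer genes then enter by construction, and for the other counts the stricter threshold is the cause by construction. Centring on the median of all genes turned the knockout's Fstl3 from 0.0038 to -0.0051, on the log2 scale, both near 0. The other counts stayed within 1.5 times and the other fold changes of the 10 genes kept their sign under each alternative run. The median fold change of all genes lay between -0.02 and 0.03. Outside the Nutlin-3 table the deposited fold change was smaller in size than the ratio of means for 47 of 48 values of these genes, by more than 0.5 in 0 of them. No paired analysis was possible because the tables hold group means; for the same reason no library could be left out, and the replicate block was not run. A result that rests on 1 library would not be seen here.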

Other observations

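In the authors' deposited tables Gdf10, whose product is also called BMP3B, was higher with Myc-ER, at 10463 normalised counts against 3121 (1.69 ± 0.28), and in tumours, at 24609 against 2859 (2.98 ± 0.52). The tumour mean was 14919 in the 3 libraries of the Nutlin-3 table. Gdf10 did not pass with Myc-ER in PKH-negative cells, at 8426 against 11821 (-0.43 ± 0.43), or in the knockout, at 3093 against 3167 (-0.03 ± 0.39). It was lower with Nutlin-3, at 8973 against 14919, and in PKH-high cells, at 2425 against 10868 (-2.15 ± 0.17). The stress-induced ligand gene Gdf15 was higher with Nutlin-3, at 1731 normalised counts against 1212, and lower in the knockout, at 164 against 1656 (-3.18 ± 0.55); its knockout value was named after its values were seen. Bmp5 had low means. It was lower with Myc-ER, at 10.8 normalised counts against 36.3 (-1.58 ± 0.42), and in tumours, at 3.69 against 33.4 (-2.97 ± 0.73). In the knockout it was lower too, at 2.99 against 37.0 (-3.37 ± 0.67), and in PKH-high cells higher, at 69.9 against 9.06 (2.52 ± 0.78). With Myc-ER in PKH-negative cells it had 25.8 normalised counts against 9.84 and did not pass (1.12 ± 0.54). Of the list of other ligands 3 of 15 were higher and 3 lower with Myc-ER, where 26.7% of all genes were higher and 24.1% lower. In tumours 2 of 14 were higher and 3 lower, where 13.5% and 13.6% of all genes were. With Nutlin-3 2 of 10 were higher and 1 lower, beside 7.71% and 7.03%. In the knockout 3 of 15 were higher and 6 lower, beside 22.3% and 23.6%. In PKH-high cells 2 of 15 were higher and 5 lower, beside 15.6% and 15.1%. With Myc-ER in PKH-negative cells 2 of 16 were higher and 4 lower, beside 18.9% and 18.5%. With so few genes, nothing particular to the list is read from these counts.

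Of the 5 adipocyte markers, Fabp4, also made by other cells, was the one listed in every table. It was higher with Myc-ER, at 7606 normalised counts against 4328 (0.81 ± 0.12), in tumours, at 16334 against 3978 (1.96 ± 0.49), and in the knockout, at 10754 against 4407 (1.28 ± 0.17). It was lower with Nutlin-3, at 15187 against 21696, and with Myc-ER in PKH-negative cells, at 6000.1 against 17287 (-1.46 ± 0.26). For PKH-high against PKH-negative cells, the 2 listed adipocyte markers summed to 24628 normalised counts against 15897, with 1 called higher.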
